A study of Mus musculus with 5 samples.

Results

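The nuclear genes of the mitochondrial respiratory chain and of ATP synthase were read on 5 mouse expression arrays. They were taken by name: every probe whose gene symbol in the platform annotation starts with Nduf, Uqcr, Cox4 to Cox8 or Atp5, or is Sdha, Sdhb, Sdhc or Sdhd. This gave 96 probes of 85 genes among 19084 named genes on the array. The MEF group was 1 array of embryonic fibroblasts from 13.5-day mouse embryos given a mock vector. The iLC group was 2 arrays labelled as such fibroblasts given lentiviral Dmrt1, Gata4 and Nr5a1 (gene regulators of the gonad) and named induced Leydig-like cells by the submitters; iLC stands for the arrays so labelled throughout. The Leydig group was 2 arrays of Leydig cells, the androgen-making cells of the testis, isolated from mice aged 56 days. The fibroblasts came from embryo bodies without head and viscera. After 12 hours with virus the infected cells were moved to a medium with IGF (50 ng/ml) and PDGFAA (10 ng/ml), per the labels' protocols, and the labels do not say whether mock-transduced cells shared that medium. Paired arrays are replicates by their titles, and the labels name no separate cultures or animals behind them. The p-values then cover array-to-array spread only, which may be technical.

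None of the delivered factors was called higher on the arrays labelled iLC than on the MEF array. Dmrt1 read 396.6 (MEF), 333.2 and 427.2 (iLC), and 548.8 and 518.7 (Leydig). Gata4 read 6773 (MEF), 4127 and 3150 (iLC), and 71888 and 50891 (Leydig). Nr5a1 read 1265 (MEF), 1509 and 1158 (iLC), and 68030 and 44721 (Leydig). The log2 differences between iLC and MEF were -0.07, -0.91 and 0.06 (adjusted p = 0.954, 0.368 and 0.964). Each gene had 1 probe, and where it lies in the gene is not known here, so whether it could read the delivered copy was not tested. The values then do not show whether the delivered copies were present, and every direction given for iLC rests on the labels.

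Respiration in the inner mitochondrial membrane runs through complex I, which takes electrons from NADH, complex II, which takes them from succinate, complex III, which passes them to cytochrome c, and complex IV, which gives them to oxygen. The proton gradient built on the way drives ATP synthase. Most subunits are encoded in the nucleus and present in nearly every cell, while several complex IV subunits have paralogues made mainly in muscle, lung or male germ cells. In steroid-making cells the first step of hormone synthesis takes place in mitochondria, and its cytochrome P450 draws electrons from NADPH.

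Values are probe intensities in arbitrary units on a linear scale, and differences are on the log2(intensity + 16) scale from 1 limma fit over all 19084 genes. A gene is called where its Benjamini-Hochberg adjusted p over all genes was under 0.05. Intensities of different probes are not comparable, so each gene is compared with itself across arrays. Array medians were 1111 to 1230, and 66 of the 85 member genes (77.6%) read above the array median on all 5 arrays, against 48.9% of all genes. Of the rest, 9 read below it on every array, so their values may lie close to background, for which no detection calls were used. Of the 6 measured Leydig markers, Nr5a1, Cyp17a1 and Hsd3b1 were called higher on the Leydig arrays than on the MEF array, and Hsd3b1 also in iLC over MEF (5.18, adjusted p = 0.033). Star, the cholesterol carrier of steroid synthesis, read 695 (MEF), 56878 and 73892 (iLC), and 1368 and 19703 (Leydig), with no call. Cyp11a1 read 451 to 907 and Hsd17b3 799 to 3738 over the 5 arrays with no call, and Insl3 and Lhcgr gave no value here. The Leydig arrays differed in germ cell and spermatid markers, of which 11 of 19 were over 1 log2 unit brighter on the second array and 9 over 3 (median 1.38). Of the 9 Sertoli cell markers, Clu and Cldn11 were called higher in Leydig cells than in MEF, and the list median was 0.42. Of the 10 fibroblast markers, 6 were called lower there and 1 higher, with a median of -3.17. Over all genes 3.34% were called higher and 3.97% lower in Leydig cells than in MEF, and 0.278% higher in iLC than in MEF. In such mixed RNA, fewer cells of a type and less RNA per cell cannot be told apart.

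Promoter sequence was set beside the members because the complex IV paralogues, described first below, hold most of the called members. The sequences are the 250 bases before the start site, from RefSeq (GRCm38.p6), written 5′ to 3′ on the gene's own strand. They belong to the sperm-type paralogues Cox6b2 (chr7:4753095-4753344 on the minus strand) and Cox7b2 (chr5:71548206-71548455 on the minus strand), and the muscle-type Cox7a1 (chr7:30183921-30184170 on the plus strand). Widely expressed forms shown are Cox6b1 (chr7:30626115-30626364 on the minus strand), the counterpart of Cox6b2, and Cox6a1 (chr5:115348959-115349208 on the minus strand). Cox6a1 is the counterpart of Cox6a2, for which no sequence was found. Capitals mark matches on either strand to 5 letter strings: GCGCA joined to its own reverse complement (NRF1, a regulator of respiratory genes; the joined string is the same on both strands), CCGGAAG (ETS factors, among them GABPA), CAAGGTCA (for Nr5a1), AGATAA (for GATA factors) and ACAATGT (for Dmrt1). No match overlapped another in these sequences.
Cox6b2: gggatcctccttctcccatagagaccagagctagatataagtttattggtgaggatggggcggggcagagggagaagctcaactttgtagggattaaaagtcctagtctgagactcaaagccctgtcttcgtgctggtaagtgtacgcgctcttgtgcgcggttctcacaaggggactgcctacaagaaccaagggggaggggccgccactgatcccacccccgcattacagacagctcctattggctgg
Cox7b2: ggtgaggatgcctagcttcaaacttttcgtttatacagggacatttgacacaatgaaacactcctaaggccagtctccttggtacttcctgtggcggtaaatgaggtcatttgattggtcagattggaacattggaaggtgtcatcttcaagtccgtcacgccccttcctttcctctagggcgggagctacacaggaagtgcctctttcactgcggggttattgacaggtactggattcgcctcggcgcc
Cox7a1: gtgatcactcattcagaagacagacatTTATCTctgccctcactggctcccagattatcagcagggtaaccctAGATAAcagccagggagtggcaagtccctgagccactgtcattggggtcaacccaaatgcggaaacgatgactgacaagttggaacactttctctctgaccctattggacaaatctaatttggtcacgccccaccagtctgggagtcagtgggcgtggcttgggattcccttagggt
Cox6b1: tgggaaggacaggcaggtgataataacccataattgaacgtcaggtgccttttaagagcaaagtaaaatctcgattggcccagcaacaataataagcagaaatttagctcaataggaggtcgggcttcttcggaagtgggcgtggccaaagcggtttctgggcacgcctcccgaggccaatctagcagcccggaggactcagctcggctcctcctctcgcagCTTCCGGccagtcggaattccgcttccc
Cox6a1: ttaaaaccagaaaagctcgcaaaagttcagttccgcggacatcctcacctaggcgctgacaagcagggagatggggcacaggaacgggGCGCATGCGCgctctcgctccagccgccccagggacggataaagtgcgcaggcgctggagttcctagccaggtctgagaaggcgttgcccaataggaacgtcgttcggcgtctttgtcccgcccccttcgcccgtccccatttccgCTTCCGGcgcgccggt

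Cox6b2 and Cox7b2 held none of these strings in the 250 bases, and Cox7a1 held the GATA letters at 2 places. Cox6a1 held the NRF1 letters from position -162 and the ETS letters from -16, and Cox6b1 the ETS letters from -28, counted from the start site. Promoter windows of 300 bases (250 before to 50 after the start) were found for 69 of the 85 genes, 73 windows in all. The NRF1 letters were in 7 of them (9.59%), against 0.971% of all 32851 windows of that length, in Atp5g2, Atp5k, Cox6a1, Ndufa11, Ndufaf4, Ndufaf5 and Uqcrc1. The ETS letters were in 15 (20.5%, against 8.86%), the Nr5a1 letters in 3 (4.11%, against 1.56%), the GATA letters in 5 (6.85%, against 11.2%) and the Dmrt1 letters in 4 (5.48%, against 2.96%). The 4 windows of restricted paralogues (Cox6b2, Cox7a1, Cox7b2 and Cox8b) held 2 to 10 CpG dinucleotides. The other 69 held a median of 20 and 5 to 39, and all windows a median of 7. Cox7b and Cox7a2, the widely expressed counterparts of Cox7b2 and Cox7a1, held none of the strings in their windows, and 5 and 20 CpG. The NRF1 and ETS letters contain CpG, in which member windows are richer (median 20 against 7 over all windows). The shares were not matched for CpG, so how far it accounts for them was not tested. A match of letters is a description and shows no binding.

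Most respiratory chain and ATP synthase genes gave no call among the fibroblasts, the induced cells and Leydig cells. Between iLC and MEF 1 of the 85 was called, higher (0.561% of all genes were called, 0.278% higher and 0.283% lower), and this was Atp5b, whose MEF reading had a part in the choice of genes and is described further below. Between iLC and Leydig cells 2 were called higher and 3 lower (5.72% and 5.65% of all genes, 11.4% in all). Between Leydig cells and MEF 3 were higher and 1 lower (3.34% and 3.97% of all genes, 7.30% in all). The 3 include Atp5b, and without it 2 were higher. Unadjusted p-values under 0.05 numbered 6, 7 and 9, or 7.06%, 8.24% and 10.6% of the members, against 15.7%, 26.9% and 19.8% of all genes. Without Atp5b they numbered 5, 6 and 8. Every array of one group lay above every array of the other for 38 members in iLC over MEF and 21 the other way (34.0% and 44.4% of all genes), for 12 and 19 in iLC over and under Leydig cells (28.9% and 29.0%), and for 43 and 22 in Leydig cells over and under MEF (32.9% and 44.1%). The differences of 79, 78 and 76 of the 85 genes were under 1 on the log2 scale in these comparisons, against 78.8%, 74.6% and 75.2% of all genes. The median size of a member's difference was 0.30, 0.29 and 0.32, against 0.47, 0.49 and 0.50 over all genes. Paired arrays differed by a median size of 0.38 for the iLC pair and 0.27 for the Leydig pair, against 0.37 in either pair over all genes. A pair sets single arrays against each other, while iLC and Leydig group values are means of 2 arrays, so these sizes are not directly comparable. The signed medians of the group differences were 0.13, -0.06 and 0.18, beside -0.11, -0.03 and -0.10 over all genes. As the members are brighter than most genes, they were also set beside the 9335 genes above the array median everywhere: 0, 1 and 0 of 66 bright members were called, against 0.214%, 8.83% and 5.86% of those genes. Signed medians were 0.17, -0.05 and 0.19 for the bright members and 0.03, 0.00 and 0.02 for those genes. In iLC against MEF, 30 bright members had both iLC arrays above and 12 both below, beside 3649 and 3342 of those genes.

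**Figure D1:**
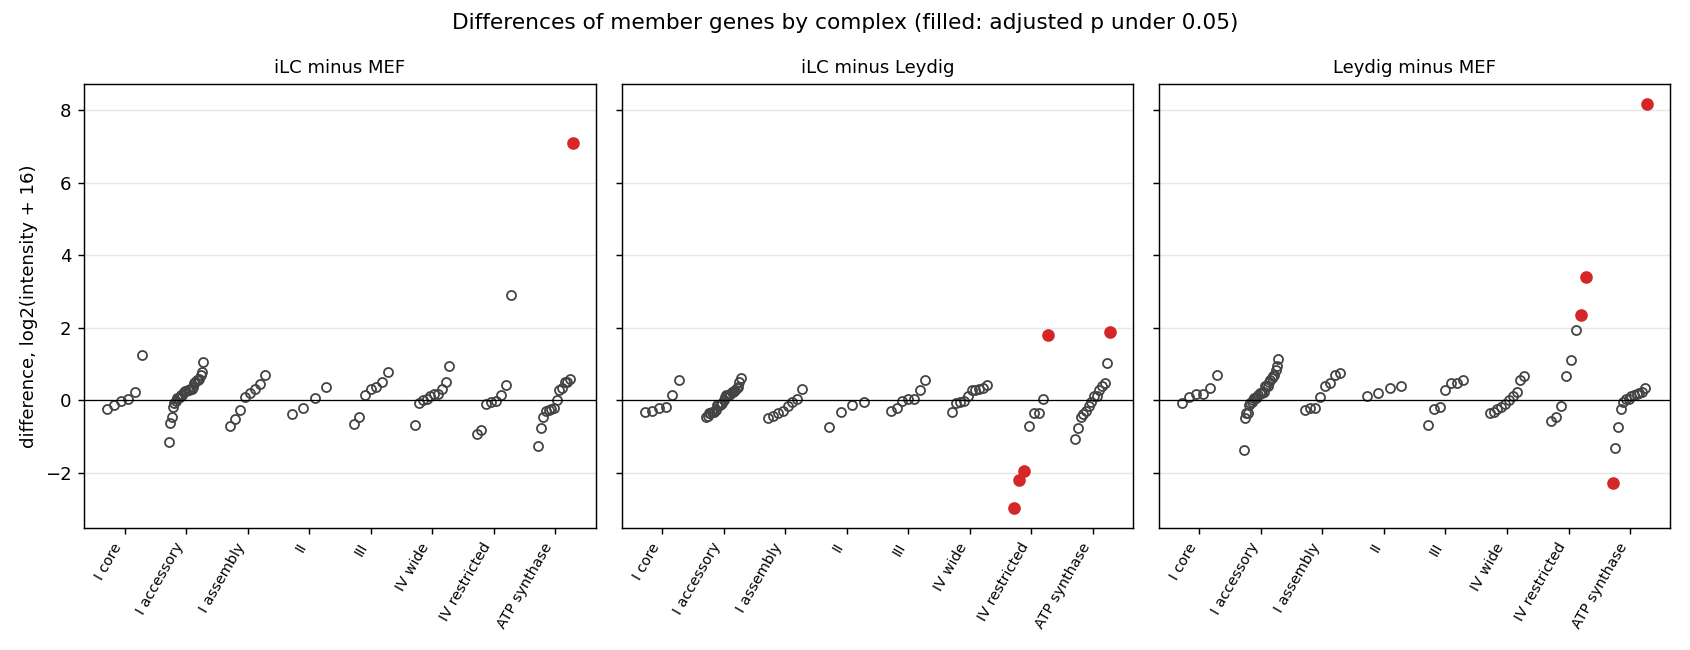
Difference of each member gene except Cox7a2l, which is not drawn, between groups, on the log2(intensity + 16) scale, by complex and role, 1 circle per gene. Filled circles are called genes, and all of them belong to restricted complex IV paralogues or ATP synthase, while complexes I, II and III lie between -1.38 and 1.23 in every panel.

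Complex IV, cytochrome c oxidase, held most of the called members. Of its 8 restricted paralogues, Cox6b2 was called higher and Cox8c, Cox7b2 and Cox7a1 lower in iLC than in Leydig cells. Cox8c and Cox7b2 were also called higher in Leydig cells than in MEF. None of the 10 widely expressed complex IV genes was called in any comparison. In iLC against MEF, iLC against Leydig cells and Leydig cells against MEF, 1, 0 and 0 had an unadjusted p under 0.05 (limma). Of all genes 0.561%, 11.4% and 7.30% were called in these comparisons, so the lack of calls among 10 genes shows little.

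Cox6b2, the testis form of a subunit at the contact between paired complex IV units, had the largest difference between iLC and MEF of any member but Atp5b. It read 2128 (MEF), 20200 and 12709 (iLC), and 4776 and 4384 (Leydig). Both iLC arrays lay above every other array, and the groups did not overlap. The log2 difference from Leydig cells was 1.80 ± 0.35 (SE), a 3.49-fold difference (adjusted p = 0.0257). That call was lost whichever of the 4 iLC and Leydig arrays was left out (1.47 to 2.14, adjusted p = 0.0511 to 0.147). The difference from MEF was 2.90 ± 0.43 (SE), or 7.48-fold, and missed the threshold (adjusted p = 0.0601). It passed in 5 of 11 other ways of processing the data, with adjusted p from 0.0289 to 0.04. A second Cox6b2 probe read 2001 (MEF), 14485 and 19122 (iLC), and 4244 and 3389 (Leydig). This probe gave 3.05 against MEF (adjusted p = 0.0471 over all named probes) and 2.13 against Leydig cells (adjusted p = 0.0121), so both probes of the gene went the same way. Between Leydig cells and MEF the difference was 1.10 (adjusted p = 0.231). Cox6b1, the form of this subunit in other tissues, read 168954 (MEF), 245608 and 179107 (iLC), and 203411 and 139559 (Leydig), with overlapping iLC and Leydig arrays and differences of 0.31 against MEF, 0.32 against Leydig cells and -0.00 between Leydig cells and MEF that did not pass.

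Cox8c and Cox7b2, paralogues of male germ cells, stood out on the Leydig arrays. Cox8c read 446.6 (MEF), 474 and 751.3 (iLC), and 3615 and 6361 (Leydig). Cox7b2 read 439.5 (MEF), 454.8 and 525.3 (iLC), and 1995 and 2658 (Leydig). For both genes the Leydig arrays lay above the other 3, while the iLC arrays stayed near the MEF array. Cox8c differed between iLC and Leydig cells by -2.97 ± 0.42 (SE, adjusted p = 0.0085), lower in iLC, and was higher in Leydig cells than in MEF by 3.38 ± 0.51 (adjusted p = 0.0159), a 10.4-fold difference. Cox7b2 differed by -2.20 ± 0.32 (adjusted p = 0.00998) and 2.35 ± 0.40 (adjusted p = 0.0217). Cox7b2 lost its call against iLC without iLC replicate 1 or 2 (-2.10 and -2.30) and its call against MEF without Leydig replicate 1 (2.55), and Cox8c lost its call against iLC without iLC replicate 1 (-2.65). Between iLC and MEF the differences were 0.41 and 0.15, neither past the test. Cox8a, the widely expressed form, read 167237 to 198147 on the 5 arrays. Cox7b, the counterpart of Cox7b2, read 334.4 to 562.1, below the array median throughout.

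**Figure D2:**
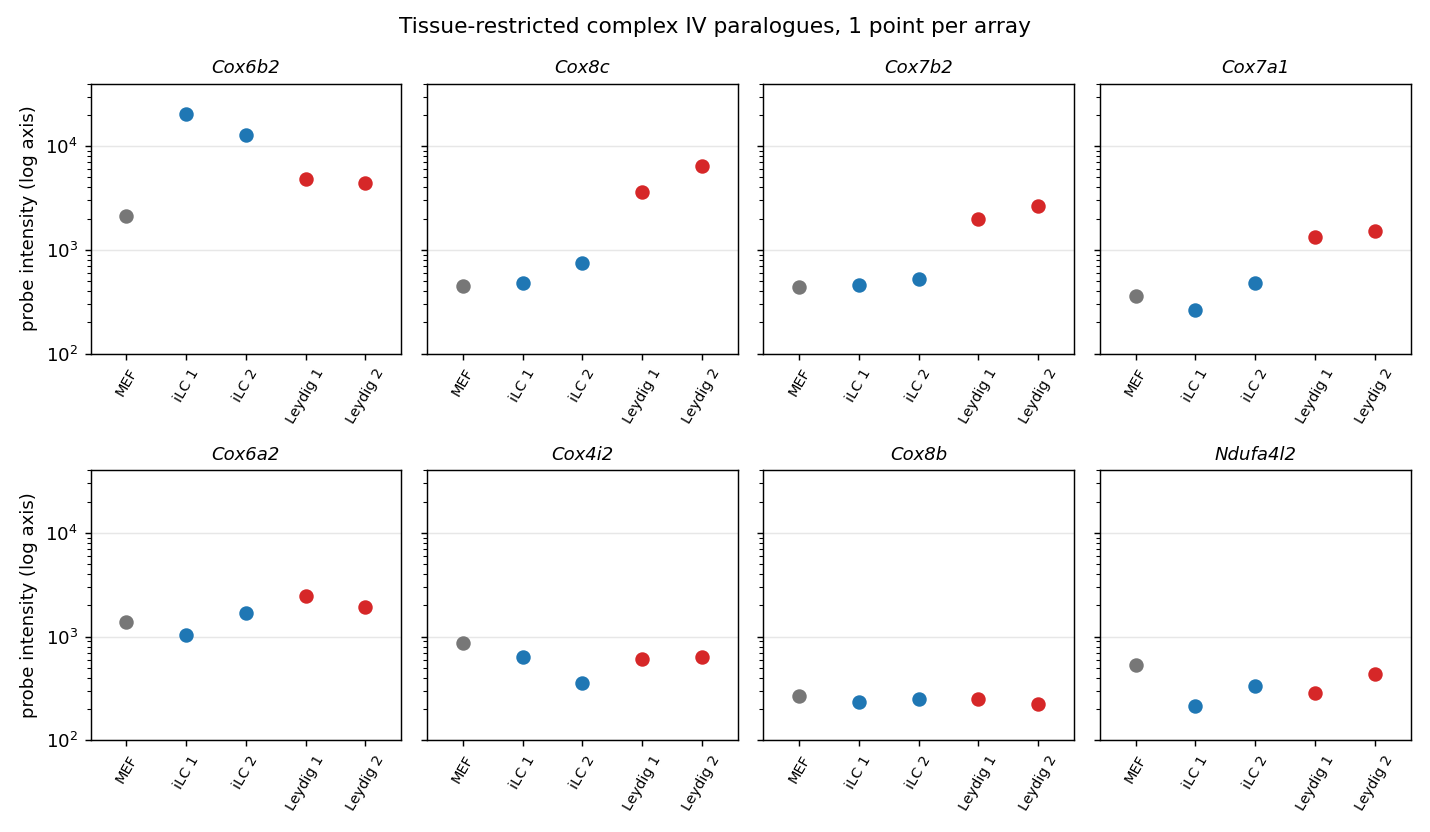
Probe intensity (log axis) of the 8 restricted complex IV paralogues on each array, 1 point per array, grey for MEF, blue for iLC and red for Leydig. Cox6b2 is highest on both iLC arrays (20200 and 12709), and Cox8c, Cox7b2 and Cox7a1 are highest on both Leydig arrays.

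Some germ cell transcripts were also higher on the Leydig arrays. Of the 19 germ cell and spermatid markers, 9 were called lower in iLC than Leydig cells, with no call the other way (median -3.38). Of all genes 5.65% were called lower there. Of these markers 2 were called higher in Leydig cells than in MEF (median 3.00), against 3.34% of all genes. None of the 19 was at 0 on a Leydig array. The spermatid genes Prm1 (6235 and 141591), Odf1 (2692 and 356634) and Pgk2 (2601 and 109689) were 22.7, 132 and 42.2 times as bright on the second Leydig array as on the first, while Odf2, Dazl, Tssk2 and Ddx4 were 0.602, 0.758, 0.829 and 0.983 times. Ldhc, the lactate dehydrogenase of germ cells, read 8223 and 15116 there, 1.84 times. Cox8c was 1.76 times and Cox7b2 1.33 times as bright on the second array. Without that array the Cox8c difference was -2.57 for iLC minus Leydig and 2.97 for Leydig minus MEF, and that of Cox7b2 was -1.99 and 2.14, but all 4 values lost their calls (adjusted p = 0.0733, 0.0884, 0.0766 and 0.102). The fit has 2 residual degrees of freedom with all arrays and 1 with an array left out. The 19 markers summed to 35458 (MEF), 26120 and 27470 (iLC), and 58847 and 941654 (Leydig), and Odf2 alone made up 20641 of the first, and 11795 and 13819 of the iLC sums. The part of germ cell RNA in the Cox6b2, Cox8c and Cox7b2 values was not tested.

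**Figure D3:**
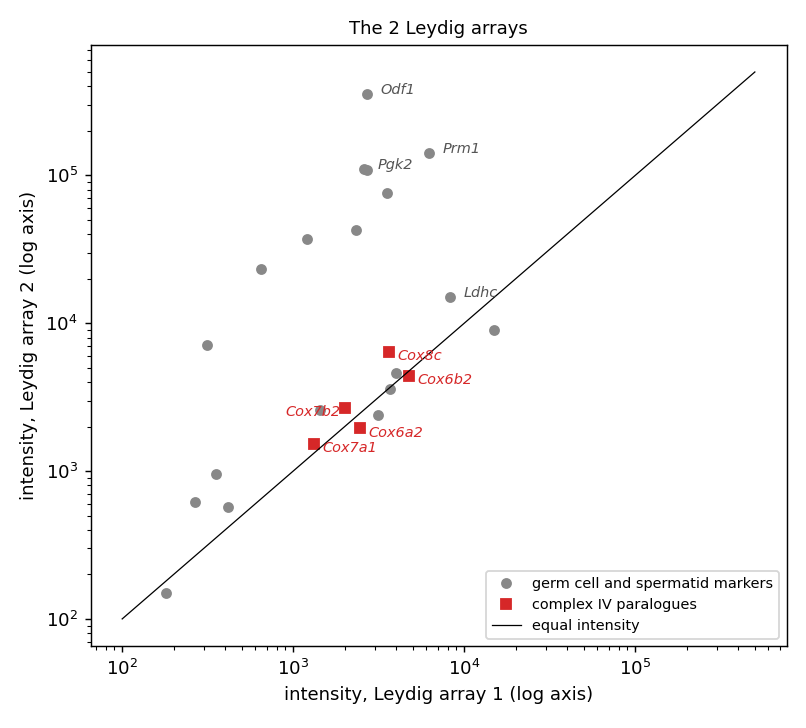
Intensity on the second against the first Leydig array, both on log axes, 1 point per gene, for 19 germ cell and spermatid markers (grey circles) and 5 complex IV paralogues (red squares); the line marks equal intensity. Spermatid genes such as Odf1 (2692 and 356634) lie far above the line, while Cox8c (3615 and 6361) and the other 4 paralogues lie near it. Some of the markers also lie near the line, such as Ldhc (8223 and 15116) and Ddx4 (3672 and 3609).

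Cox7a1 and Cox6a2 are the forms found in heart and skeletal muscle. Cox7a1 read 360.8 (MEF), 261.2 and 480.9 (iLC), and 1329 and 1522 (Leydig), which lay above all others. It was lower in iLC than in Leydig cells by -1.95 ± 0.39 (SE, adjusted p = 0.026), a call lost without iLC replicate 1 or either Leydig array (-1.53 to -2.05 there, highest adjusted p = 0.16). Its difference of 1.93 ± 0.47 between Leydig cells and MEF did not pass (adjusted p = 0.0666). Cox7a2, its widely expressed counterpart, read 169028 to 201119 on the 5 arrays. Cox6a2 read 1374 (MEF), 1036 and 1674 (iLC), and 2442 and 1943 (Leydig), with no call (-0.72 between iLC and Leydig cells, 0.66 between Leydig cells and MEF). Its dimmer second probe read 346.5 (MEF), 423.3 and 709 (iLC), and 1489 and 1550 (Leydig). That probe differed by 2.08 between Leydig cells and MEF (adjusted p = 0.0458 over all named probes) and by -1.44 between iLC and Leydig cells (adjusted p = 0.0551). The 8 striated muscle markers summed to 48108 (MEF), 7500 and 7936 (iLC), and 5012 and 5131 (Leydig), and the skeletal actin gene Acta1 made up 42869 of the first. Of the 8, Acta1 was the one called, lower in iLC and in Leydig cells than in MEF (0.283% and 3.97% of all genes were). The muscle creatine kinase gene Ckm read 183 to 232 on all arrays. The part of muscle RNA in the Cox7a1 and Cox6a2 values was not tested.

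The other restricted forms were dim. Cox4i2, the form of lung, read 867.7 (MEF), 635 and 357.1 (iLC), and 603.2 and 641.5 (Leydig). Ndufa4l2, a paralogue of Ndufa4 known to rise in low oxygen, read 534.5 (MEF), 212.8 and 337.5 (iLC), and 286.2 and 432.1 (Leydig). Cox8b, a muscle form, read 222.8 to 264.7 on all arrays. For Cox4i2 and Ndufa4l2 the MEF array was highest, with differences of -0.84 and -0.95 between iLC and MEF that did not pass (adjusted p = 0.44 and 0.388). The low ends of the arrays differ, with 1st percentiles of 83.8 for MEF and -10.1 and 23.7 for iLC. With the low ends aligned, the differences of Cox4i2 and Ndufa4l2 between iLC and MEF were -0.74 and -0.73.

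The widely expressed complex IV genes moved less, with differences of -0.69 to 0.94 over the 3 comparisons. Ndufa4, first assigned to complex I and now counted in complex IV, was the one farthest from MEF, at 115762 (MEF), 209879 and 234370 (iLC), and 201645 and 167347 (Leydig). All 4 arrays lay above MEF, with differences of 0.94 ± 0.38 (SE) for iLC (adjusted p = 0.313, unadjusted p = 0.0473) and 0.67 for Leydig cells. Cox6a1 was also lowest in MEF, with 181349 in MEF and 253133 to 280981 elsewhere, a difference of 0.50 for iLC. Cox4i1, the main form of the largest nuclear-encoded subunit, read 118504 to 171890, and the 2 iLC arrays were the lowest and the highest of the 5. Cox5a read 113424 to 175212. Cox7a2l, which helps join complexes III and IV into supercomplexes, read 56745 to 89135 with no call. The 10 widely expressed genes had medians of 0.13, 0.19 and -0.05 for iLC against MEF, iLC against Leydig cells and Leydig cells against MEF.

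Complex I, the largest, had 41 measured genes and no call in any comparison (limma, with an unadjusted p under 0.05 for 2, 0 and 2). Of all genes 0.561%, 11.4% and 7.30% were called. The median differences of complex I were 0.21 for iLC against MEF, -0.10 for iLC against Leydig cells and 0.19 for Leydig cells against MEF. Ndufs3, a core subunit of the arm that faces the matrix, read 4591 (MEF), 13100 and 8855 (iLC), and 8257 and 6554 (Leydig). Every other array lay above MEF, but its difference of 1.23 ± 0.43 (SE) for iLC did not pass (adjusted p = 0.255, unadjusted p = 0.0278). The other 5 core genes differed less. Ndufs1, which carries iron-sulfur clusters, read 30978 (MEF), 23209 and 33646 (iLC), and 39554 and 31045 (Leydig), and Ndufv1, which binds NADH, read 54857 (MEF), 43884 and 64602 (iLC), and 69032 and 55710 (Leydig). For both genes the iLC arrays lay on either side of the MEF array.

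Among the 27 accessory subunits of complex I, 14 had both iLC arrays above the MEF array and 4 had both below. Over all genes these shares were 34.0% and 44.4%. Of the 9335 genes above the array median on all 5 arrays, 3649 had both above and 3342 both below. Ndufa6 read 42102 on the MEF array and 73030 to 105456 on the others, a difference of 1.06 ± 0.42 for iLC (adjusted p = 0.303). Ndufa1 read 41643 (MEF), 69136 and 64145 (iLC), and 88733 and 93598 (Leydig), the one accessory gene named here in which the 3 groups followed one another without overlap. Its difference between Leydig cells and MEF was 1.13 ± 0.37 (adjusted p = 0.149). Ndufab1, the mitochondrial acyl carrier protein, went the other way, from 2612 (MEF) to 1770 and 759.5 (iLC) and 995 and 987.9 (Leydig) (-1.16 and -1.38, neither past the test). The 8 Ndufaf genes, which help assemble the complex, differed by -0.71 to 0.75 over the 3 comparisons. Ndufs3, Ndufs4, Ndufa6, Ndufa1 and Ndufab1 were singled out after their values were seen.

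Complexes II and III also gave no call, and none of their genes had an unadjusted p under 0.05 (limma). Of all genes 15.7%, 26.9% and 19.8% had one in iLC against MEF, iLC against Leydig cells and Leydig cells against MEF. There 0.561%, 11.4% and 7.30% of all genes were called, so the lack of calls in these small complexes shows little. Sdha, the flavoprotein that oxidises succinate, read 48855 (MEF), 30957 and 44779 (iLC), and 58365 and 65824 (Leydig). Both iLC arrays lay below the MEF array and both Leydig arrays above it, with a difference of -0.74 ± 0.34 between iLC and Leydig cells that did not pass (adjusted p = 0.228). Sdhb, its iron-sulfur partner, read 78764 to 111115 with overlapping groups. Uqcrc1, a core protein of complex III, read 45664 on the MEF array and 29715 to 43020 on the others. Uqcrfs1, the Rieske iron-sulfur protein, read 66593 (MEF), 65489 and 112287 (iLC), and 51045 and 67910 (Leydig). The 6 complex III subunits had median differences of 0.33, -0.01 and 0.36, and Uqcrh-ps1, a pseudogene that the name rule takes in, read 75.7 to 161.5.

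ATP synthase had 14 measured genes, of which Atp5o and Atp5md were called, beside Atp5b. Atp5o, the stalk subunit that holds the catalytic head in place, read 1917 (MEF), 2999 and 2716 (iLC), and 882.2 and 663.3 (Leydig). It was higher in iLC than in Leydig cells by 1.88 ± 0.32 (SE, adjusted p = 0.0163), a 3.67-fold difference. Atp5md, a small membrane subunit, read 3199 (MEF), 1351 and 1294 (iLC), and 761.1 and 535.5 (Leydig), falling from MEF through iLC to Leydig cells without overlap. It was lower in Leydig cells than in MEF by -2.30 ± 0.40 (adjusted p = 0.0242), while -1.26 between iLC and MEF and 1.03 between iLC and Leydig cells did not pass (adjusted p = 0.222 and 0.105). Each of these genes had 1 probe, and on the Leydig arrays both genes read below the array medians (1111 and 1230). The calls of Atp5o in iLC against Leydig cells and of Atp5md in Leydig cells against MEF were lost whichever of the 4 iLC and Leydig arrays was left out (highest adjusted p = 0.101 and 0.106), with differences of 1.68 to 2.08 and -2.54 to -2.05.

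**Figure D4:**
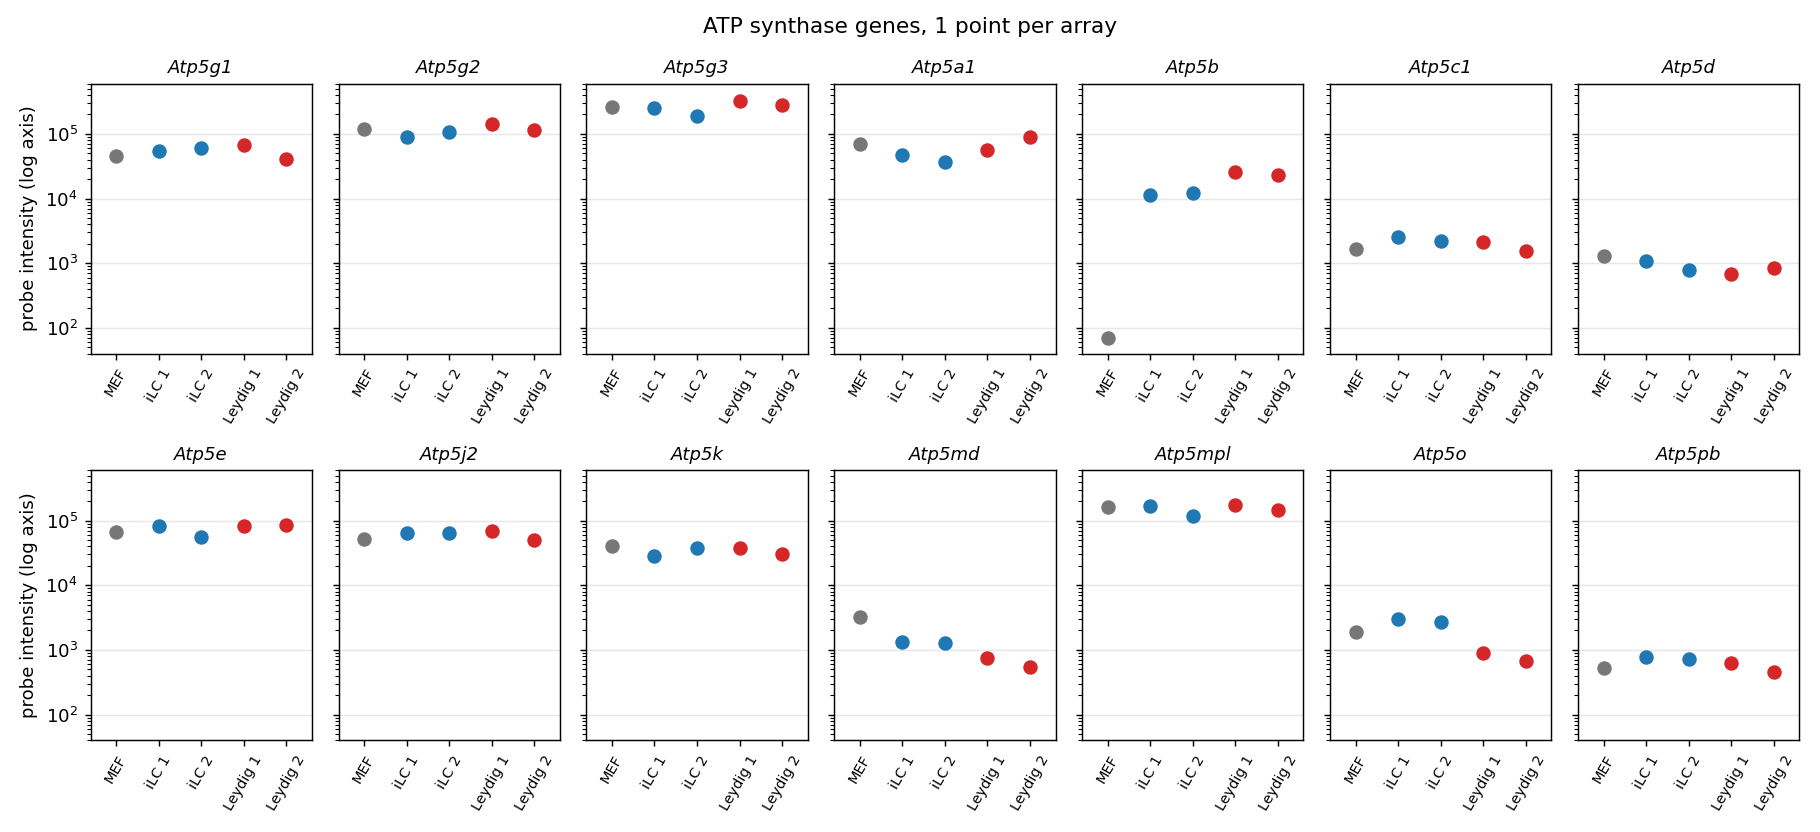
Probe intensity (log axis) of the 14 ATP synthase genes on each array, 1 point per array, grey for MEF, blue for iLC and red for Leydig. Atp5b reads 69.5 on the MEF array and 11251 or more on the others, Atp5o and Atp5md are lowest on the Leydig arrays, and the remaining genes show smaller gaps.

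Atp5b, the catalytic beta subunit of the head, read 69.5 (MEF), 11251 and 11978 (iLC), and 25763 and 23354 (Leydig). The MEF reading was rank 71 from the dimmest of 26423 probes on that array. Because it had a part in the choice of genes, its log2 differences from MEF, 7.09 for iLC and 8.17 for Leydig cells, are a description with no test. The reading lies below the 1st percentile of the MEF array (83.8), so these differences depend on how its low end is treated and are no exact folds. Over the ways of processing tried they ran from 6.11 to 9.50 for iLC and from 7.18 to 10.58 for Leydig cells. The other 4 genes of the catalytic head gave no such gap: Atp5a1, the alpha partner of Atp5b, read 70379 (MEF), 46781 and 37133 (iLC), and 56814 and 89922 (Leydig), and Atp5c1, Atp5d and Atp5e differed from MEF by -0.75 to 0.51. A probe under 100 on 1 array and over 5000 on the other 4 occurred 5 times with the MEF array as the low one, and 0 times with any of the other 4 arrays. The 5 probes were those of Atp5b, Mrpl36, Rchy1, N4bp1 and Asnsd1. Atp5b had no second probe to set beside this one. Between iLC and Leydig cells, where the MEF array has no part, Atp5b differed by -1.08 ± 0.30 and did not pass (adjusted p = 0.0744), and Atp5a1 by -0.78 (adjusted p = 0.237). Without Atp5b the members had 0 calls between iLC and MEF (5 with an unadjusted p under 0.05), 5 between iLC and Leydig cells and 3 between Leydig cells and MEF.

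**Figure D5:**
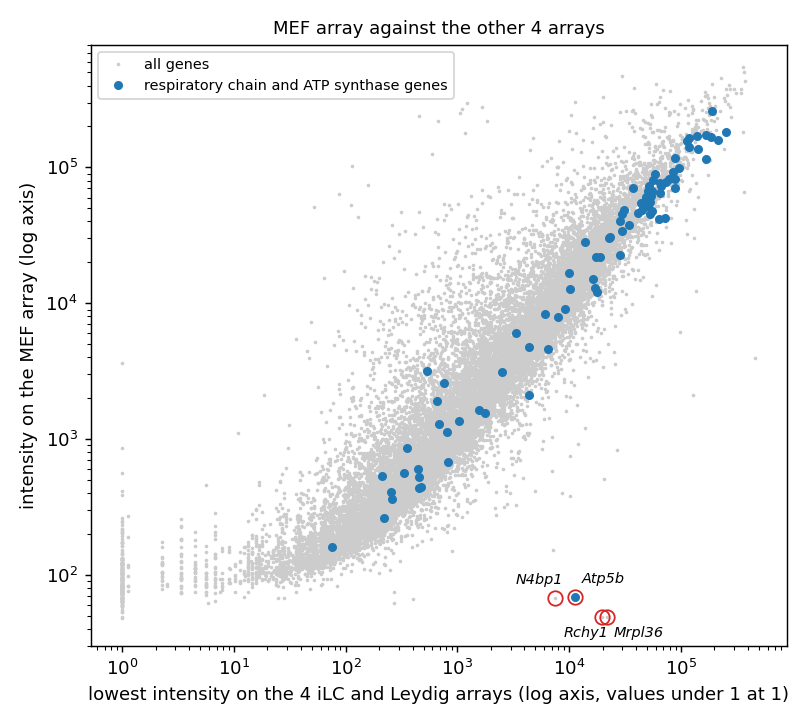
Intensity on the MEF array against the lowest intensity on the 4 iLC and Leydig arrays, both on log axes, 1 point per gene, with the respiratory chain and ATP synthase genes in blue. Atp5b (69.5 on the MEF array) lies with Mrpl36, Rchy1 and N4bp1 (circled) far below the diagonal band that holds the other member genes.

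Atp5g1, Atp5g2 and Atp5g3, separate genes for the ring subunit that turns with the proton flow, gave no call. Atp5g1 read 41251 to 67639, Atp5g2 89119 to 141306 and Atp5g3 191865 to 318914, with differences of -0.47 to 0.32. For Atp5g2 and Atp5g3 both iLC arrays lay below the MEF array and below both Leydig arrays.

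Of the member genes, 10 had more than 1 probe, with 11 further probes. These went the same way as the probe used for 4 of 11 in iLC against MEF, 7 in iLC against Leydig cells and 4 in Leydig cells against MEF. Several of the further probes were dim, which limits what their sign shows. Those of Atp5g1, Cox7a2l, Ndufa11, Ndufaf5 and Ndufaf7 read at most 929 on every array, below the array medians. Both further Ndufv3 probes read 4576 or more. The genes with probes of opposite sign in at least 1 comparison were Atp5g1, Cox6a2, Cox7a2, Cox7a2l, Ndufa11, Ndufaf5, Ndufaf7 and Ndufv3. Cox7a2l is an example, with 80521 (MEF), 69550 and 89135 (iLC), and 72844 and 56745 (Leydig) for the probe used, and 189.1, 239.8 and 199.2, and 329.3 and 492.7 for the other. Both Cox6b2 probes and both Ndufs4 probes kept 1 direction in all comparisons. No further probe was called in iLC against MEF or against Leydig cells other than that of Cox6b2, and in Leydig cells against MEF other than that of Cox6a2.

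The lists of other mitochondrial genes gave 0 to 2 calls in each comparison. Over all genes 0.561%, 11.4% and 7.30% were called in iLC against MEF, iLC against Leydig cells and Leydig cells against MEF. At those shares, single calls in lists of 14 to 71 genes do not set a list apart. Of 36 assembly factors of the complexes other than the Ndufaf genes, only Cox16 was called, lower in iLC than in Leydig cells (-2.14, adjusted p = 0.0339; iLC 132.8 and 73.3, Leydig 345.7 and 695.3, MEF 382.3). Of 16 carriers and exchangers, Gpd2, the glycerol phosphate dehydrogenase that feeds electrons into the chain, was higher in iLC than in Leydig cells (1.83, adjusted p = 0.0249). Cyct, the testis cytochrome c, was lower there (-2.79, adjusted p = 0.0244; iLC 27 and 107.3, Leydig 414.4 and 570), though the MEF array read 558, and the gene is also on the germ cell list. Of 17 citrate cycle and pyruvate genes, Pcx, which makes oxaloacetate from pyruvate, was higher in Leydig cells than in MEF (1.92, adjusted p = 0.0466). None of 14 regulators of mitochondrial biogenesis was called in any comparison (limma; 2, 1 and 1 had an unadjusted p under 0.05), with medians of -0.20, 0.16 and -0.38. Of 71 mitochondrial ribosomal protein genes, Mrpl36 was called against MEF by iLC and by Leydig cells, with a MEF reading of 49.1, Mrpl43 was higher in iLC than in Leydig cells (1.35, adjusted p = 0.0422), and Mrps6 was lower in Leydig cells than in MEF (-1.89, adjusted p = 0.0331). The 13 subunits encoded in mitochondrial DNA gave no value here.

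Glycolysis genes had a lower median than the respiratory genes in both cell kinds set against MEF, although few passed singly. The 16 measured genes had medians of -0.69 for iLC and -0.39 for Leydig cells against MEF. These stand beside 0.13 and 0.18 for the respiratory genes and -0.11 and -0.10 over all genes. The difference between the lists was not tested. None was called between iLC and MEF, against 0.561% of all genes (limma, 5 had an unadjusted p under 0.05, against 15.7% of all genes). There 12 of 16 had both iLC arrays below the MEF array. That held for 44.4% of all genes, and for 3342 of the 9335 genes above the array median on all 5 arrays. Slc2a1, the basal glucose transporter, read 109844 (MEF), 51632 and 50115 (iLC), and 12023 and 8814 (Leydig). It fell in this order without overlap, and was called between Leydig cells and MEF (-3.41, adjusted p = 0.00759) and between iLC and Leydig cells (2.30, adjusted p = 0.00843). Slc16a3, a lactate exporter, was lower in Leydig cells than in MEF (-3.57, adjusted p = 0.0133). Aldoc, an aldolase, was lower in iLC than in Leydig cells (-3.07, adjusted p = 0.00586).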

How the data were processed

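Probe intensities of 5 single-colour Cy5 arrays were used as the authors deposited them, on a linear scale. How the authors corrected and normalized them: not given in the sources used here. Groups follow the sample titles (1 MEF, 2 iLC, 2 Leydig). Of 26423 probes, 21876 had 1 gene symbol in the platform annotation. The probe with the highest mean log2 value stood for a gene, giving 19084 genes. All 85 member genes had their Entrez identifier, under the same symbol, in RefSeq's gene table (GRCm38.p6).

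Values below 0 were set to 0, 16 was added, and log2 was taken, which shrinks differences of dim genes. limma 3.58.1 in R 4.3.3 (lmFit, eBayes; 2 residual and 4.21 prior degrees of freedom) fitted 1 mean per group, two-sided, with Benjamini-Hochberg adjustment over all genes. MEF has 1 array, which takes its spread from the paired arrays. The script was tested on simulated data. The number of arrays limits the precision.

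The members and lists were chosen with earlier results of these data known. Named members were the called ones, the restricted paralogues with their counterparts, the ring subunit genes, core subunits, those whose probes went opposite ways, and genes marked as singled out later; from other lists, up to 3 called genes per comparison. Alternatives were another pseudocount, a filter on dim genes, median centring, quantile normalization, aligned low ends, other probe rules, each replicate left out and a replicate block.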

Additional observations from a re-analysis of the deposited data

How the results depend on the processing

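The count of called members between iLC and MEF was 1, and 0 without Atp5b (added after seeing the data). It was 2 with a pseudocount of 100, a filter at the 20th percentile, median centring, quantile normalization or the mean of a gene's probes (Cox6b2 joined Atp5b). With aligned low ends it was 1. Over all genes the calls were 53 higher and 54 lower, and 133 and 176 with a pseudocount of 100. They were 107 and 118 of 15267 with the filter, 130 and 209 with centring, and 171 and 206 with quantile normalization. Aligned low ends gave 6 and 0, and the mean of probes 52 and 50. Whichever of the 4 iLC and Leydig arrays was left out, all genes lost their calls, so that loss was not particular to the members. Between iLC and Leydig cells the count of 5 ranged from 0 to 2 without one of those arrays and stayed within 1.5 times in 10 of 14 alternatives; between Leydig cells and MEF the count of 4 ranged from 1 to 3 without one of them, was 3 without Atp5b, and 10 of 12 stayed within 1.5 times. Cox7a1 passed between Leydig cells and MEF under 4 alternatives (1.72 to 2.03), and Atp5b between iLC and Leydig cells with a pseudocount of 100 (-1.07, adjusted p = 0.0462). Member medians ranged over 0.07 to 0.18, -0.14 to 0.02 and 0.03 to 0.26. The median of all genes between iLC and MEF moved from -0.11 to 0.05 with quantile normalization and to 0.12 with aligned low ends; the member median was 0.18 in both. The replicate block left 5 members called; replicate numbers did not pair the arrays (correlation of deviations 0.0557), and over all genes it gave 1482 higher and 1958 lower in place of 1091 and 1079. Leaving out the MEF array, chosen after seeing the data, also left 5. The cause of these changes was not tested, except that leaving out an array removes 1 of the 2 residual degrees of freedom.

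Alternatives were recomputed gene by gene for 30 members, and in these the differences whose sign turned were uncalled and at most 0.37 in size, some above the members' median size. For iLC against MEF, centring gave Cox4i1 -0.05 and Cox7a2 -0.01; quantile normalization gave Cox5a 0.07, Cox7a1 0.16, Cox7a2l 0.07, Cox8b 0.20 and Ndufv1 0.03; aligned low ends gave Cox6a2 0.03, Cox7a1 0.33 and Cox8b 0.35; the mean of probes gave Cox6a2 0.29, Cox7a2 -0.42 and Cox7a2l 0.08. For iLC against Leydig cells, Cox6a1 became 0.01 with quantile normalization and Cox7a2l -0.27 with the mean of probes. For Leydig cells against MEF, Atp5a1 became -0.02 with centring, Cox6b1 0.10 and Cox8b 0.06 with quantile normalization, Cox8b 0.18 with aligned low ends, and Atp5g1 -0.09 and Cox7a2l 0.35 with the mean of probes. Without one array, ranges crossed 0 for iLC against MEF in Cox4i1 (-0.26 to 0.28), Cox5a (-0.30 to 0.16), Cox6a2 (-0.40 to 0.28), Cox7a1 (-0.44 to 0.40), Cox7a2 (-0.03 to 0.12), Cox7a2l (-0.21 to 0.15), Ndufs1 (-0.42 to 0.12), Ndufv1 (-0.32 to 0.24) and Uqcrfs1 (-0.02 to 0.75). For iLC against Leydig cells they did in Atp5g1 (-0.24 to 0.48), Cox4i1 (-0.16 to 0.38), Cox4i2 (-0.77 to 0.03), Cox6a1 (-0.13 to 0.01), Cox7a2 (-0.18 to 0.01), Cox8b (-0.04 to 0.11), Ndufv1 (-0.50 to 0.06) and Sdhb (-0.39 to 0.11). For Leydig cells against MEF they did in Atp5a1 (-0.31 to 0.35), Atp5g1 (-0.16 to 0.56), Atp5g2 (-0.05 to 0.26), Cox4i1 (-0.24 to 0.03), Cox6b1 (-0.28 to 0.27), Sdhb (-0.05 to 0.44) and Uqcrfs1 (-0.38 to 0.03).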
